A study of Homo sapiens with 6 samples.

Results

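Aquaporins are membrane channels through which water, and in some members glycerol and other small neutral solutes, cross a membrane along their gradients. AQP10 and 8 further aquaporin genes were examined in SHSY5Y, a human neuroblastoma line with neuron-like features. The members are the 9 genes AQP10, AQP3, AQP7, AQP9, AQP1, AQP4, AQP5, AQP8 and AQP11, out of 18132 genes that at least 1 probe set names alone. A probe set is a group of short array probes that reads one transcript or a few. Every probe set annotated to exactly 1 gene symbol, that of a member, was taken, which gave 27 probe sets. AQP10 was singled out for its difference between manganese and control in these arrays, so its values are given as a description, with no test. The other 8 genes were taken for their family, and for them the results of a test over all probe sets are given.

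The series holds 6 one-colour arrays. The 3 control arrays are of untreated cultures, and the 3 manganese arrays are of cultures given 100 µM manganese for 24 h, which the labels give as the LC50, the median lethal concentration, divided by 5. All cultures grew in MEM and F12 medium with 10% serum, and 6 µg of total RNA was labelled for each array. Arrays within a group are numbered as biological replicates. Whether the cultures were started apart is not stated, so p-values measure the spread between these samples, which may be technical. All cells are of 1 line.

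The family falls into groups by what the pores pass. AQP1, AQP4 and AQP5 are water channels, and AQP8 passes water and ammonia. AQP3, AQP7, AQP9 and AQP10 are aquaglyceroporins, whose wider pores also pass glycerol, and AQP11 is an unusual member of the membrane of the endoplasmic reticulum. In the brain AQP4 is known as the water channel of astrocyte end-feet and AQP1 as that of the choroid plexus. AQP10 is best known from the small intestine and from adipocytes, where it lets glycerol out.

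The promoter of AQP10 is shown because AQP10 was the aquaporin with the largest difference, and because metal, hypoxia and osmotic stress each act through known short motifs. The 250 bases before its start site in RefSeq lie on the plus strand of GRCh38.p14, at chr1:154320843-154321092. Capitals mark matches to the searched motifs.
AQP10 promoter: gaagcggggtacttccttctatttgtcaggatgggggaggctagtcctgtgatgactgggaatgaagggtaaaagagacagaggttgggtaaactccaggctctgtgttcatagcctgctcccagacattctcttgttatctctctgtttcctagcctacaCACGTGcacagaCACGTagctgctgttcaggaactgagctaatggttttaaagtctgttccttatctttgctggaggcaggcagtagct
The matches are CACGTG, the E-box bound by MYC and USF, at bases -89 to -84 before the start, and ACGTG, the core of the hypoxia response element bound by HIF. The core lies inside the E-box on both strands, and once more on the opposite strand at bases -77 to -73. Of 35116 RefSeq promoter windows of this length, 18.5% hold ACGTG and 6.34% hold CACGTG on either strand. The same search covered TGCACNC and TGCGCNC (metal response element), TGANTCA (AP-1), TGACGTCA (cAMP response element), TGATGNAA (ATF4), TGACNNNGC (antioxidant response element) and the tonicity element of NFAT5. In that order they were found in 9.87%, 16.8%, 6.57%, 1.65%, 3.14%, 10.9% and 17.4% of all windows, and not in the AQP10 window. Among the 11 windows of 8 member genes, ACGTG and CACGTG were found for AQP10 and AQP5, TGCGCNC for AQP3, TGACNNNGC for AQP8, and the tonicity element for AQP4 and AQP8. A match describes letters and is not evidence that a factor binds.

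Of the 2 AQP10 probe sets, 1 was higher on every manganese array and the other was not. Probe set 11734383_a_at, which the platform annotation ties to the AQP10 RefSeq transcript, read 6.81, 7.35 and 7.11 on the log2 scale in controls 1, 2 and 3. On manganese arrays 1, 2 and 3 it read 8.90, 8.74 and 8.82. The groups did not overlap, and the lowest manganese array lay 1.39 above the highest control. The controls were more spread out than the manganese arrays, with means of 7.09 ± 0.27 and 8.82 ± 0.08 (SD, n = 3). The log2 difference was 1.73, a 3.32-fold higher signal in manganese. Control 1 was lowest and control 2 highest, so the difference was 2.01 against control 1, 1.71 against control 3 and 1.47 against control 2.

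Probe set 11734382_a_at, tied by the annotation to a cDNA record of AQP10, read 5.54, 5.32 and 5.35 in the controls and 5.32, 5.47 and 5.27 in manganese. These groups overlapped, at 5.40 ± 0.12 and 5.35 ± 0.10, and the log2 difference was -0.05. Both probe sets have the suffix _a_at, which marks probes designed to transcripts of a single gene. The files do not say which part of the gene either reads, so whether they read different transcripts of AQP10 was not tested.

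Both AQP10 probe sets lay above the 40th percentile of their array on all 6 arrays, the level below which a signal was counted as dim. That level was 4.37 to 4.40 on the log2 scale. Probe set 11734383_a_at ran from the 75.4th percentile on its lowest array to the 91.5th on its highest, and 11734382_a_at from the 55.0th to the 59.4th. A place above the 40th percentile is not proof of expression. ADIPOQ, the adipocyte hormone adiponectin, and GFAP, the astrocyte filament protein, also lay above it on every array, at 7.04 ± 0.08 and 6.43 ± 0.07 in the controls.

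**Figure D1:**
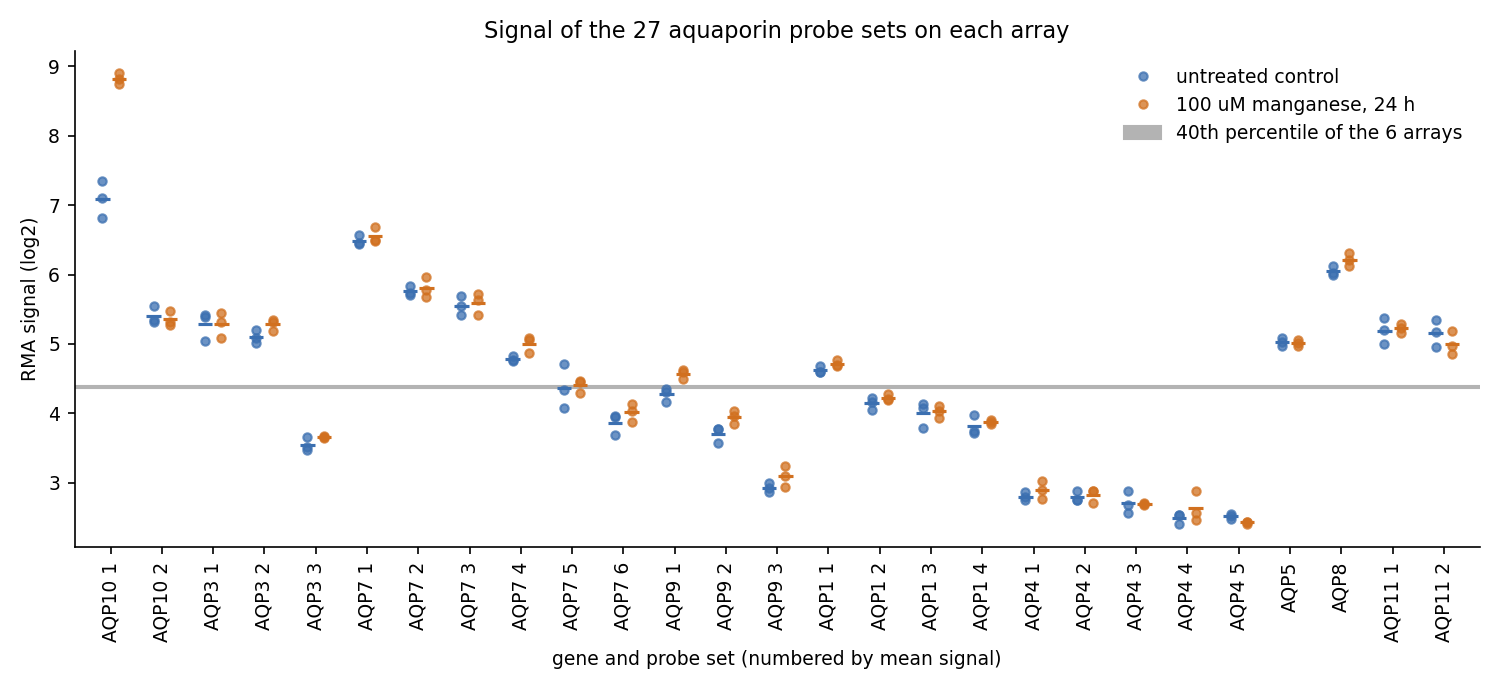
RMA signal on the log2 scale of each of the 27 aquaporin probe sets on the 3 control and 3 manganese arrays; each point is 1 array, short lines are group means, probe sets of a gene are numbered from the highest mean, and the grey line spans the 40th percentiles of the arrays. The first AQP10 probe set is at 6.81 to 7.35 in controls and 8.74 to 8.90 in manganese, while the second overlaps.

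The AQP10 probe sets differed from each other by 1.78 in their manganese difference. AQP10 was chosen for the larger of these differences, which makes up nearly all of the gap, so its size against other genes was set by that choice and nothing is read from it. For scale, the median gap over 7133 genes with 2 or more tested probe sets was 0.17. Of the genes with a called probe set, FOS and SCARNA20 had the widest gaps beside AQP10. FOS, a transcription factor induced by many stimuli, had 4 probe sets from 0.03 to 2.19. SCARNA20, a small Cajal body RNA, had 3 from 0.00 to 1.77. Of 11 genes with a called probe set and at least 1 further tested one, 7 also had a probe set that was not called. AQP10 is itself counted in both numbers, through the difference it was chosen for. Within the family the tested probe sets of AQP3, AQP7 and AQP11 each spanned 0.19.

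**Figure D2:**
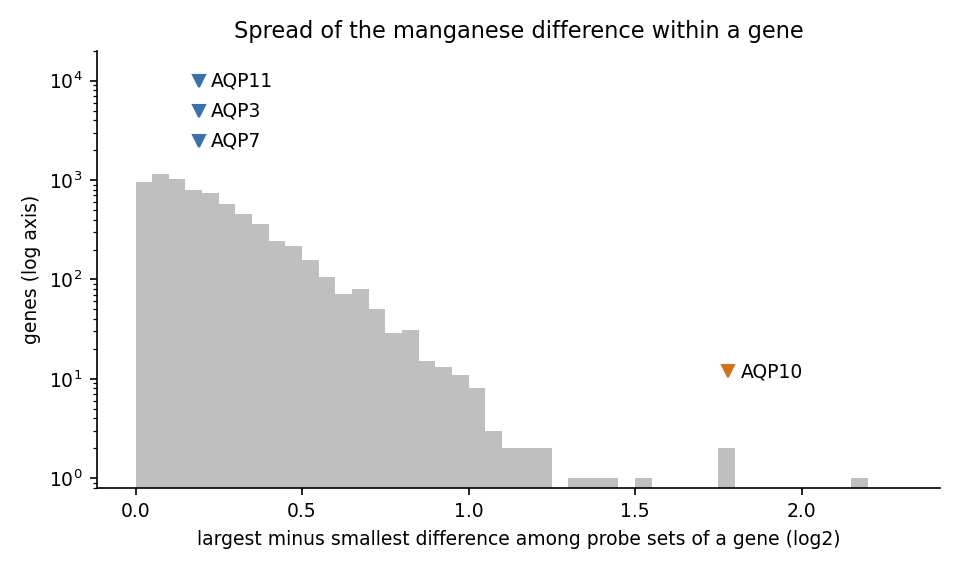
Histogram over 7133 genes of the largest minus the smallest manganese difference among the tested probe sets of a gene (log2), with the number of genes on a log axis; triangles mark aquaporin genes along the horizontal axis only, their height having no meaning. AQP10 lies at 1.78 and AQP3, AQP7 and AQP11 at 0.19, against a median of 0.17.

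The pattern of 11734383_a_at over the 6 arrays was most like that of SCARNA20 and the histone gene H2AC20. Likeness was the root mean square difference of log2 values after each probe set was centred on its own mean, over 27392 tested probe sets with 1 gene symbol. It was 0.05 for SCARNA20 and for H2AC20, 0.15 for H2BC9, also a histone gene, 0.16 for SPAG4, a SUN-domain protein, and 0.20 for TNFRSF12A, the receptor of TWEAK. AQP10 itself varied around its mean by 0.88 in the same measure. All 5 genes were lowest in control 1 or control 3 and highest on the manganese arrays. SCARNA20 read 4.96, 5.43 and 5.12 in the controls and 7.03, 6.88 and 6.92 in manganese, and H2AC20 read 4.95, 5.47 and 5.11 and then 7.05, 6.86 and 6.87. The measure takes in the difference that AQP10 was chosen for, so the likeness is a description.

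**Figure D3:**
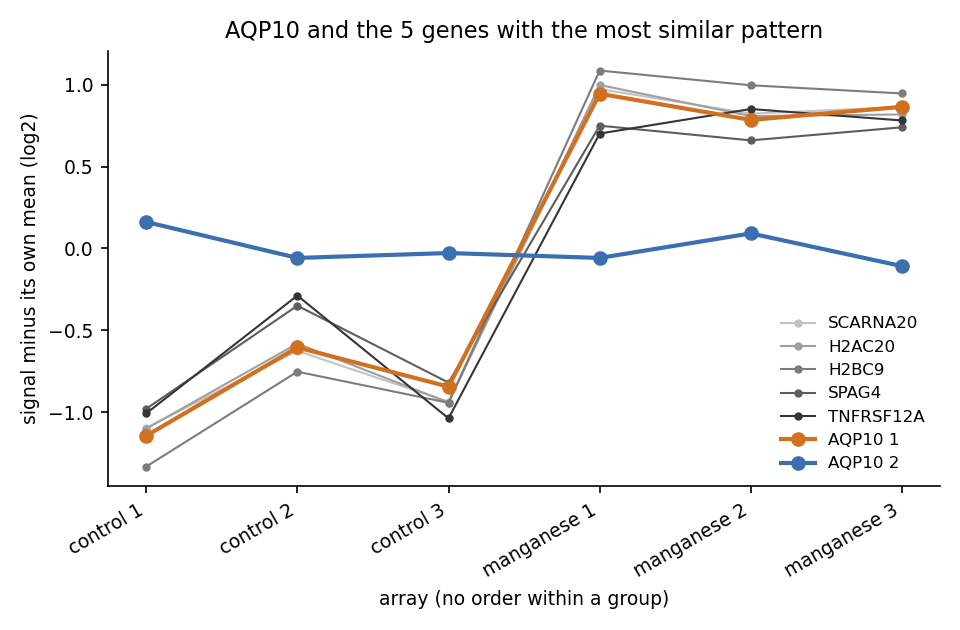
Log2 signal of both AQP10 probe sets and of the 5 genes with the most similar pattern on each array, each centred on its own mean; AQP10 1 is 11734383_a_at and AQP10 2 is 11734382_a_at. The first AQP10 line differs from SCARNA20 and from H2AC20 by a root mean square of 0.05, and the second stays flat.

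In the RefSeq gene order of GRCh38.p14 the gene directly after AQP10 is ATP8B2, a phospholipid-transporting ATPase. Its probe set with the highest mean read 8.32, 8.20 and 8.34 in the controls and 7.63, 7.75 and 7.45 in manganese. The groups did not overlap and lay in the opposite order to those of AQP10. The difference of -0.68 (SE 0.12) was not called, at a limma adjusted p of 0.124, and the other ATP8B2 probe sets differed by 0.13 and 0.07. Before AQP10 the closest gene with a probe set is HAX1, a mitochondrial anti-apoptotic protein, named although outside the rule for named genes. HAX1 read 11.21 ± 0.18 in controls and 11.43 ± 0.09 in manganese, a difference of 0.22 with an adjusted p of 0.501.

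Among the other 8 aquaporin genes 0 probe sets were called. Limma tested 13 of their 25 probe sets, those above the 40th percentile on at least 3 arrays, and the lowest adjusted p was 0.351. At an unadjusted p under 0.05 there was 1, of AQP9, which was tested only because of its manganese arrays. Over all 29871 tested probe sets 32 were called at an adjusted p of 0.05, which is 0.107%, and 12.5% had an unadjusted p under 0.05. Of the 32, 31 were higher in manganese (0.104%). The 32 became 0 without manganese replicate 2 and 75 without control replicate 2. Among the 13 tested aquaporin probe sets manganese lay wholly above control in 3, that of AQP9 among them, and wholly below in 0. Over all tested probe sets the shares were 9.4% and 9.59%. Of the 13, 11 were positive, against 52.7% of all tested probe sets. Against control 2 alone 7 of the 13 were positive, against 48.7% of all tested probe sets. Probe sets of 1 gene are not independent, and nothing is read from these shares. The 12 dimmer probe sets were not tested and are given by their values. The intervals below show what size of difference the 6 arrays leave possible.

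**Figure D4:**
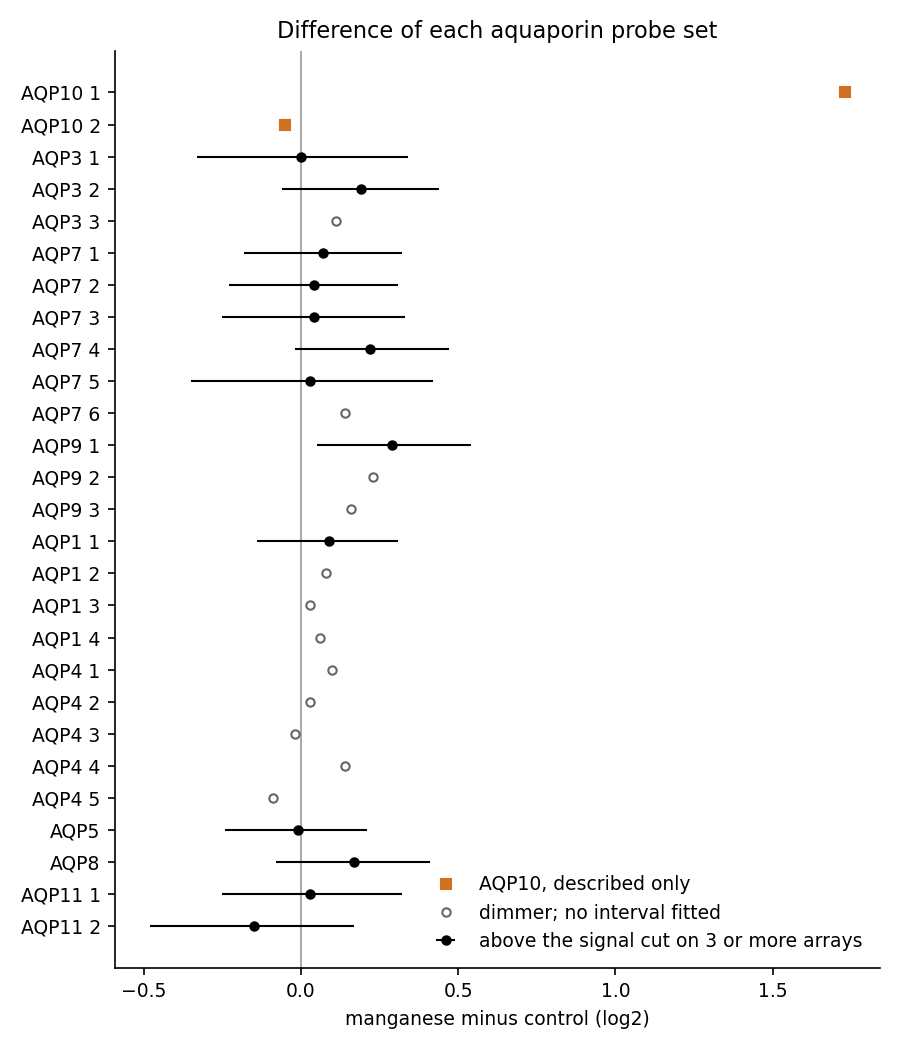
Manganese minus control on the log2 scale for each of the 27 probe sets; lines are 95% intervals of the limma fit for tested probe sets of the 8 genes other than AQP10, open points are dimmer probe sets without a fit, and squares are AQP10, described only. Apart from AQP10 the points lie between -0.15 and 0.29.

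AQP9, an aquaglyceroporin of liver that also passes urea and arsenite, had the largest difference after AQP10, on a dim signal. Its brightest probe set, 11725702_a_at, read 4.17, 4.31 and 4.35 in the controls and 4.49, 4.63 and 4.59 in manganese. All 3 control arrays lay below the 40th percentile and all 3 manganese arrays above it. It was therefore tested only because of the manganese arrays, and a probe set that enters in this way had to differ. The difference was 0.29 (95% interval 0.05 to 0.54) with a limma adjusted p of 0.351. A second AQP9 probe set read 3.57, 3.78 and 3.77 and then 4.03, 3.96 and 3.85, again without overlap, and the third overlapped with a difference of 0.16. Against control 2 alone the 3 differences were 0.26, 0.16 and 0.09.

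AQP7, the glycerol channel of adipocytes, was read by 6 probe sets, of which 5 were tested. Their differences ran from 0.03 to 0.22. Probe set 11748897_a_at read 4.77, 4.82 and 4.75 in the controls and 4.87, 5.05 and 5.09 in manganese, which did not overlap. Its difference of 0.22 (95% interval -0.02 to 0.47) was not called, at an adjusted p of 0.429. The brightest AQP7 probe set, 11744941_a_at, overlapped at 6.49 ± 0.07 and 6.55 ± 0.11, a difference of 0.07 (-0.18 to 0.32). Of the 6, 3 carry the suffix _x_at, which marks probes that may bind transcripts of other genes, and AQP7 has near-identical copies. A further probe set, shared by AQP7 and its copies AQP7P1 and AQP7B, differed by 0.03.

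AQP3, the glycerol and water channel of epithelial basolateral membranes, was read by 3 probe sets. The one at the highest mean, 11760931_x_at, overlapped at 5.28 ± 0.21 and 5.28 ± 0.18, a difference of 0.00 (95% interval -0.33 to 0.34). Its suffix marks probes that may bind transcripts of other genes. The next read 5.02, 5.08 and 5.20 in the controls and 5.35, 5.32 and 5.19 in manganese, a difference of 0.19 (-0.06 to 0.44). The third was dim on all arrays and differed by 0.11.

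The water channels were dim or close to it, apart from AQP5. AQP4 lay below the 40th percentile on all 6 arrays with all 5 of its probe sets, between the 0.7th and the 11.3th percentile, with differences from -0.09 to 0.14. The dimmest, 11752685_a_at, read 2.55, 2.52 and 2.48 and then 2.41, 2.44 and 2.44, the only member probe set wholly lower in manganese. AQP1 passed the signal level with 1 of 4 probe sets, at 4.63 ± 0.05 and 4.72 ± 0.05, a difference of 0.09 (95% interval -0.14 to 0.31). AQP5, known from salivary, tear and airway glands, read 4.97, 5.03 and 5.08 in the controls and 5.05, 4.97 and 5.02 in manganese. Its groups overlapped, and the difference was -0.01 (-0.24 to 0.21).

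AQP8, a channel for water and ammonia found in colon, pancreas and liver, was read by 1 probe set. It read 6.13, 6.00 and 6.02 in the controls and 6.31, 6.21 and 6.13 in manganese. The groups did not overlap, although the lowest manganese array and control 1 were both at 6.13 when rounded. The difference of 0.17 (95% interval -0.08 to 0.41) was not called, at an adjusted p of 0.541. AQP11, the channel of the endoplasmic reticulum, overlapped with both its probe sets, at differences of 0.03 (-0.25 to 0.32) and -0.15 (-0.48 to 0.17).

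The probe sets nearest to the 40th percentile were those of AQP9 and AQP7 inside it and of AQP1 outside it. AQP9 11725702_a_at and AQP7 11751690_x_at each passed on 3 of 6 arrays, the AQP7 one on 1 control and 2 manganese arrays at 4.37 ± 0.33 and 4.40 ± 0.10. AQP1 11756045_s_at stayed just below, at 4.15 ± 0.09 and 4.23 ± 0.04. In all, 13 of the 27 probe sets were above the level on all 6 arrays, 2 on 3 arrays and 12 on 0 arrays.

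The signs of the differences in the family were counted as a description. Of the 25 probe sets of the other 8 genes, 21 had a positive difference, against 54.9% of all 49293 probe sets, with a median of 0.07 against 0.02. Against control 2 alone 16 of the 25 were positive, against 51.6% of all. Manganese lay wholly above control in 4 of the 25 and wholly below in 1, where 8.9% and 7.63% of all probe sets did. Probe sets of 1 gene share its RNA and are not independent, and the contrast is the one that AQP10 was chosen on, so nothing is read from these counts.

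Some array-wide values differed between the arrays as well. The 23 probe sets that Affymetrix places on the array to measure background had medians of 3.02, 3.09 and 3.14 on controls 1, 2 and 3 and of 3.19, 3.18 and 3.17 on the manganese arrays. Probe sets that did not pass the signal level were positive in 58.3% of cases. Poly(A) spike-in RNA, added before labelling, averaged 6.14 and 5.81 on controls 1 and 3 and 7.79 to 7.91 on control 2 and the manganese arrays, and control 1 correlated least with the other arrays (r from 0.967 to 0.980 across tested probe sets). The part of background and spike-in level in the aquaporin differences was not tested. For 11734383_a_at of AQP10 the difference against control 2, whose spike-in mean lay closest to those of the manganese cultures, was 1.47.

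Aquaporin genes that are not members did not stand out either. MIP, the lens aquaporin, read 5.68 ± 0.12 in controls and 5.83 ± 0.15 in manganese with its brighter probe set, and AQP2, the vasopressin-regulated channel of the kidney collecting duct, 5.83 ± 0.09 and 5.93 ± 0.10. These differences of 0.15 and 0.10 were not called (limma adjusted p 0.640 and 0.729). The other MIP probe set differed by -0.07, and further AQP2 probe sets by 0.04 and, on a dim signal, 0.03. AQP6 was dim with both its probe sets, which differed by 0.03 and 0.01. The probe set shared by AQP12A and AQP12B differed by 0.03.

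Genes that make, store or use glycerol showed no call. Of 37 genes in the list of glycerol and triglyceride metabolism, 29 were tested, each by its probe set with the highest mean, and 15 had positive differences with a median of 0.00. By limma 0 were called, and 2 had an unadjusted p under 0.05. Over all 13407 genes tested, read from the fit and adjustment over all 29871 probe sets, 54.1% were positive, the median was 0.02, 17 were called and 13.1% had an unadjusted p under 0.05. G0S2, an inhibitor of the triglyceride lipase ATGL, read 6.31 ± 0.19 in controls and 7.36 ± 0.23 in manganese, without overlap. Its difference of 1.05 (SE 0.15, adjusted p 0.0801) was not called, its other tested probe set gave 0.34, and against control 2 it was 0.86. GPAT4 and AGPAT1, which add acyl chains to glycerol phosphate in turn, differed by -0.26 and 0.27 (limma adjusted p 0.380 and 0.417). The tested probe sets ranged from -0.26 to 0.07 for GPAT4 and from 0.04 to 0.27 for AGPAT1. LPIN1, a phosphatidate phosphatase, differed by -0.49 (limma adjusted p 0.439). The LPIN1 difference was -1.08 against control 1, -0.07 against control 2 and -0.34 against control 3. PNPLA2, which encodes ATGL, differed by 0.00 (95% interval -0.38 to 0.38).

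Genes of osmotic stress and cell volume showed no call either. Of 31 genes 26 were tested, 11 had positive differences, the median was -0.04, and 2 had an unadjusted p under 0.05 with 0 called by limma. SLC12A4, a potassium chloride cotransporter, read 7.60 ± 0.33 and 8.26 ± 0.22, a difference of 0.67 (adjusted p 0.265) that was 0.29 against control 2. Its 12 tested probe sets ranged from -0.07 to 0.67. WNK1, a kinase that senses chloride and regulates such cotransporters, differed by -0.61, CLCN3, a chloride and proton exchanger, by 0.29, and NFAT5, the transcription factor of the response to high tonicity, by -0.44. The adjusted p were 0.378, 0.471 and 0.491. Against control 2 WNK1 was at -0.15 and NFAT5 at 0.09, the opposite sign.

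Of 24 genes that anchor or move aquaporins, 20 were tested and 14 had positive differences, with a median of 0.05. Limma called 0 of them, and 0 had an unadjusted p under 0.05. DTNA, which encodes the dystrobrevin of the complex that holds AQP4 at astrocyte end-feet, read 6.26 ± 0.48 and 6.66 ± 0.09, a difference of 0.41 (adjusted p 0.479). It was -0.14 against control 1, 0.63 against control 2 and 0.73 against control 3, and its 3 tested probe sets ranged from 0.41 to 0.79. EZR, which encodes ezrin, a linker of membrane proteins to actin, differed by 0.19. AKAP7, an anchor of protein kinase A, differed by 0.20 and DTNB by 0.19. Their tested probe sets ranged from -0.30 to 0.19 for EZR, from 0.04 to 0.20 for AKAP7 and from -0.05 to 0.19 for DTNB. KCNJ10, the potassium channel found beside AQP4 in astrocytes, differed by 0.17 (-0.11 to 0.45).

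**Figure D5:**
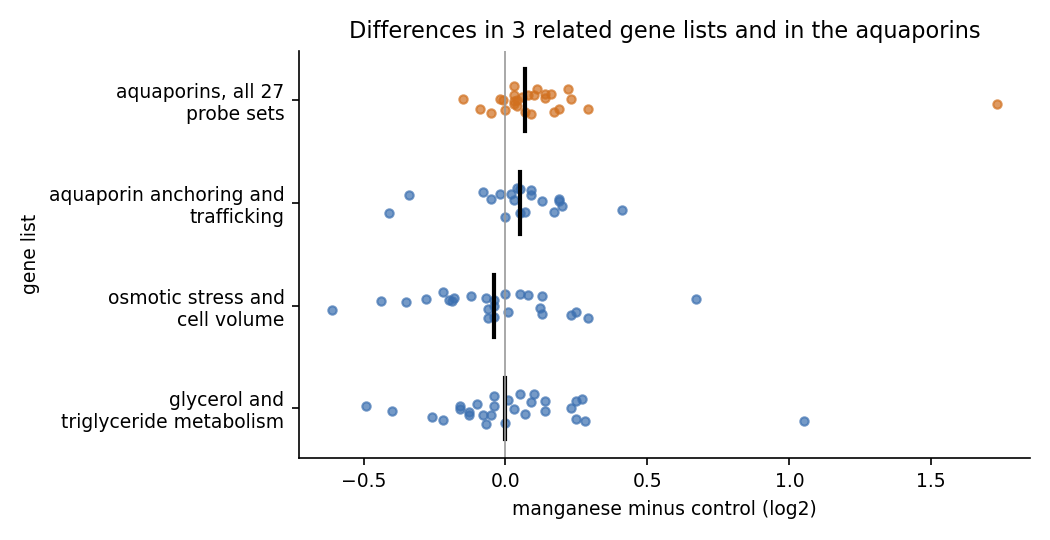
Manganese minus control on the log2 scale for the tested genes of 3 lists, 1 point a gene, and for all 27 aquaporin probe sets; vertical offsets are for display and black bars are medians. The list medians are 0.00, -0.04 and 0.05 over tested genes. The aquaporin median is 0.07 over all 27 probe sets, dim ones included, and 0.04 over the 15 tested. The point at 1.73 is AQP10.

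The arrays carried the markers of the labelled line. The 14 tested of 16 neuroblastoma markers lay between the 81.3th and the 99.7th percentile on every array, with HAND2 at 13.13 ± 0.01, GATA3 at 11.97 ± 0.14 and DBH at 11.97 ± 0.27 in controls. Their mean was 10.84 to 10.97 on control arrays and 10.78 to 10.87 on manganese arrays, and limma called 0, with 4 of the 14 at an unadjusted p under 0.05, against 13.1% of all genes tested. Of these SLC18A1, a vesicular monoamine transporter, differed by 0.52, and STMN2, a stathmin of growing axons, ISL1 and ELAVL4 by -0.71, -0.58 and -0.50. Against control 2 alone the 4 were at 0.42, -0.27, -0.26 and -0.21, and against control 1 the last 3 were at -1.20, -1.07 and -0.80. Markers of cell types in which aquaporins are well known were mixed. All 6 astrocyte markers and the 4 analysed erythroid markers of 6 passed the signal level. Of the enterocyte list 5 of 6 genes were dim (VIL1, FABP2, FABP1, APOA4 and SI) and ALPI passed. Of the epithelial list 3 of 7 were dim (EPCAM, CDH1 and ESRP1). KRT8, KRT18, KRT19 and CLDN4 of that list passed the level on all 6 arrays. PLIN1, LEP and FABP4 of the 6 adipocyte genes were dim as well, while ADIPOQ, CIDEC and CFD passed on all 6 arrays. Limma called 0 tested genes of the astrocyte, epithelial, enterocyte, adipocyte and erythroid lists, and 1 had an unadjusted p under 0.05, KRT19 at 0.50 (0.07 against control 2). The mean of the tested adipocyte markers was 6.01 to 6.20 on control arrays and 6.13 to 6.22 on manganese arrays, and that of the 1 tested enterocyte marker, ALPI, 5.86 to 6.06 and 5.85 to 6.08. The part of other cell types in the AQP10 signal was not tested further.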

How the data were processed

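Total RNA of 3 control and 3 manganese cultures was measured on 6 arrays. The authors deposited log2 values for 49395 probe sets. The submitters' processing notes name RMA and Affymetrix Expression Console, with versions not given in the sources used here. RMA brings all arrays to 1 distribution, so a shift shared by most genes is not visible. Genes were named from the platform annotation, which gave 1 symbol for 44988 probe sets and several for 1832. It named none for 2473, 102 of the 49395 being Affymetrix controls. Of the 44988, 44961 matched RefSeq by Entrez number. Testing required a signal over the array's 40th percentile on 3 or more of the 6 arrays, which 29871 probe sets had. Limma 3.58.1 in R 4.3.3 fitted group alone (lmFit, eBayes, two-sided), with Benjamini-Hochberg adjustment over all tested probe sets and a threshold of 0.05. Intervals and SE come from this fit. The main limma fit and its calls were tested on simulated data, and the other steps were not. Arrays give no counting depth, so their number limits the precision.

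Members and lists were chosen with earlier results of these data known. Named genes were all members, the other aquaporins, up to 4 genes of each list by call and then unadjusted p, the 3 RefSeq neighbours of AQP10 on each side, and the 5 most similar patterns. Further genes are named as examples after their values were seen. Neighbours without a probe set are not named. The RefSeq tables are of GRCh38.p14, while the arrays name no build. Alternatives changed the filter, the probe set rule, the variance model, array weights, centring, the replicate block and the arrays used.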

Additional observations from a re-analysis of the deposited data

How the results depend on the processing

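The AQP10 difference of 1.73 at 11734383_a_at lay between 1.47 and 1.86 over 17 alternatives. It was 1.47 against control 2 alone and 1.59 to 1.86 when each array in turn was left out. Changes of the filter, the probe set rule, the variance model and the replicate block leave this difference as it is. AQP10 was chosen for it, and its groups did not overlap, so leaving out arrays could not turn the sign. Nothing is read from its stability. The difference at 11734382_a_at lay between -0.11 and 0.03. The count of called probe sets among the other 8 genes was 0 under every alternative run, by limma, with 0 to 3 at an unadjusted p under 0.05. The count over all probe sets, 32 (31 higher, 1 lower), was less stable. It was 19 with 1 probe set per gene, in a separate fit and adjustment over those 13407 alone, 7 against control 2 alone, 723 with housekeeping centring (364 higher, 359 lower) and 5364 with array weights (2631 higher, 2733 lower), which gave control 1 a weight of 0.178 and control 3 one of 5.156. Leaving out each array in turn gave 0 to 75 calls. It was 75 without control 2 (50 higher, 25 lower), 13 without control 3, 7 without manganese 1, 12 without manganese 3 and 0 without manganese 2, where 2343 had an unadjusted p under 0.05. Why the count moved was not tested. With the replicate number as a block 15 were called. The arrays showed no sign of pairing by number. Deviations of same-numbered arrays correlated at -0.293, 0.135 and -0.293, and 0 of 3 controls correlated best with their own number. With 3 arrays per group this cannot exclude a pairing. Signs of AQP11 11728147_s_at (-0.16 to 0.19), AQP5 (-0.07 to 0.03), AQP3 11760931_x_at (-0.12 to 0.10) and 4 AQP7 probe sets turned under some alternative. Among the other 8 genes the AQP9 interval alone left out 0, and the remaining 12 tested probe sets had intervals that include 0. The AQP9 probe set was tested only because of its manganese arrays, so nothing is read from its interval.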
